A study of Homo sapiens with 2 samples.

Results

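Layilin is a membrane receptor for hyaluronan, and its expression was followed here together with CD44, the hyaluronan-mediated motility receptor and the enzymes that make and degrade hyaluronan in 2 drug resistant derivatives of the A2780 ovarian carcinoma cell line. The members are 9 genes, LAYN, CD44, HMMR, HAS1, HAS2, HAS3, HYAL1, HYAL2 and HYAL3, out of 30238 gene names on the arrays, and they were chosen by gene name, with every probe of each gene retained, which gave 12 probes. LAYN was singled out because its low ratio in both lines was already known from these arrays, so its ratios below are a description and not evidence for that choice. The other members were added for their known function, but with earlier results of these arrays known. Counts of changed members are therefore no independent evidence.

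A2780CBN was selected in increasing doses of carboplatin, to 22.2 µM per the labels. A2780CBNDXL was selected in carboplatin and docetaxel together. The labels give 8.02 µM of the combination as its terminal dose. In the study that value is the inhibitory carboplatin concentration of this line in its colony assay, beside nanomolar docetaxel. The maximally tolerated dose in the study was lower for both drugs. Each array compared a resistant line with A2780CC, parental cells co-cultured without selection, in the other dye, so every group shares the A2780 background. A line is thus 1 RNA sample, a pool of 3 isolations, hybridised 4 times, once per dye orientation (forward and reverse) on either of 2 slides. The arrays are therefore technical repeats, the SD given below covers technical error only, and no test across cultures was possible. Both lines were measured against the same control label, so each line's values are set side by side and no overlap between them is given. The study's methods describe a co-cultured control developed for each resistant line, so the controls compared below may be separate cultures. Because bulk RNA was measured, fewer cells of a type and less RNA per cell cannot be told apart.

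Hyaluronan is a long unsulphated polysaccharide of the extracellular matrix, built at the plasma membrane by the synthases HAS1, HAS2 and HAS3 from UDP-sugars. Hyaluronidases such as HYAL1 in lysosomes and HYAL2 at the cell surface cut it into fragments. Cells bind it through CD44, its main receptor, through RHAMM (the product of HMMR, which also acts at the mitotic spindle) and through layilin, a C-type lectin whose cytoplasmic tail binds talin and the ezrin, radixin and moesin family. In ovarian carcinoma, CD44 and hyaluronan are best known for attachment of tumour cells to the mesothelium of the peritoneum.

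The sequences of the receptor probes are shown because the layilin result rests on a pair of probes whose coordinates are written in opposite order. In the coordinates of the files (NCBI36), the LAYN mRNA probe lies on chromosome 11 at chr11:110936670-110936729 and is written in ascending order, whereas the other LAYN probe, at chr11:110915385-110915444, is written in descending order, with 21225 bases between them. Among 18364 probes with RefSeq mRNA accessions, this order fitted the strand of the gene for 99.4%. Among 1391 probes with other accessions, to which the other LAYN probe belongs, it fitted for 93.9%. The other LAYN probe was therefore described apart, as a likely measurement of the opposite strand, although the files name it LAYN. The CD44 probe lies at chr11:35207510-35207569 and the HMMR probe at chr5:162851415-162851474. The first 30 of the 60 bases of each probe read, 5′ to 3′:
LAYN mRNA probe: acttttaagggacagagctttacctggcag
LAYN opposite-strand probe: ccttccttctgtcccagttagaatacgtca
CD44 probe: gggagctgggacacttaacagatgcaatgt
HMMR probe: actatttcttcagagtttgtcatatactgc
The longest run of bases shared by the whole LAYN probes was 5 on the same strand and 8 on opposite strands, and their GC content was 45.0% and 40.0%. No stretch of one probe thus repeats the other.

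Per channel and array, 59.8% to 67.5% of spots exceeded the background clearly, by the flag of the scanner software, and no spot was saturated. The log2 ratios of the forward arrays and the turned reverse arrays correlated with r of 0.58 to 0.61 in A2780CBN and 0.73 to 0.74 in A2780CBNDXL, across probes. Arrays of the same labelling correlated more closely, at 0.85 to 0.87 and 0.87 to 0.90. The SDs below thus include differences between the labellings. A probe was considered measurable when 1 channel was well above background on all 4 arrays of a line, and changed when its mean log2 ratio, resistant line over control, was also at least 1 in size (2-fold) with the same sign on all 4 arrays. Where a gene had several probes, the brightest stood for it. By this rule 12.6% of 17949 measurable genes changed in A2780CBN (8.01% higher and 4.57% lower) and 17.0% of 17119 in A2780CBNDXL (7.72% higher and 9.24% lower). Of the lineage markers, KRT8, KRT18, PAX8 and VIM were well above background in every channel, whereas WT1, MUC16, CDH1, PTPRC, PECAM1 and CDH5 were not above background on any array. The leukocyte genes CD3E and CD14 were also well above background in every channel. The summed signal of the 4 mesenchymal markers (log2 scale) was 17.81 to 18.15 in A2780CBN against 16.45 to 17.55 in its control. For A2780CBNDXL it was 17.72 to 17.91 against 17.47 to 17.59. Signals were added before the log was taken, so this sum follows VIM, by far the brightest, at 256600 in A2780CBN. VIM was higher in A2780CBN, at a log2 ratio of 1.08, and did not change in A2780CBNDXL, at 0.30. Within that list COL1A2 was lower in both lines, at -5.67 and -2.81, and DCN higher, at 2.21 and 3.62. DCN was short of 2-fold in A2780CBN, at 0.75, with normal-exponential background correction and loess normalization. COL1A1 was higher in A2780CBNDXL, at 2.04, and stood at 0.99 in A2780CBN. After scaling across arrays, the control beside A2780CBNDXL exceeded that beside A2780CBN by 2.04 for COL1A2 and 2.84 for DCN (log2). The scaled DCN level of A2780CBN, 8.17, lay below the control beside A2780CBNDXL, at 8.81. The summed signal of the 5 epithelial markers was 11.84 to 12.14 against 11.06 to 11.26 and 11.78 to 11.92 against 11.16 to 11.32. KRT18, the brightest of them, was higher in A2780CBN, at 1.05, and stood at 0.51 in A2780CBNDXL. EPCAM was higher in both lines, at 2.07 and 1.67. With normal-exponential correction and loess, KRT18 in A2780CBN, at 0.89, and EPCAM, at 0.96 and 0.84, fell short of 2-fold. KRT8 and KRT19 did not change in A2780CBN, at -0.37 and -0.48, nor KRT8 in A2780CBNDXL, at 0.18. The part of these markers in the results below was not tested.

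Of the 9 members, 5 were measurable in A2780CBN and 6 in A2780CBNDXL. LAYN was lower in both lines and was the only member to change in A2780CBN, against 4.57% of all measurable genes that were lower there. In A2780CBNDXL, LAYN, HMMR and HAS3 were lower and no member was higher, against a share of 9.24% lower among all genes. HYAL2 and HYAL3 stayed within the 2-fold limit in both lines. CD44 and HAS1 were not above background in any line or control. Of the measurable members nearest to the limit, HMMR in A2780CBNDXL passed it, at a log2 ratio of -1.16, and HYAL2 in the same line did not, at 0.89.

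**Figure D1:**
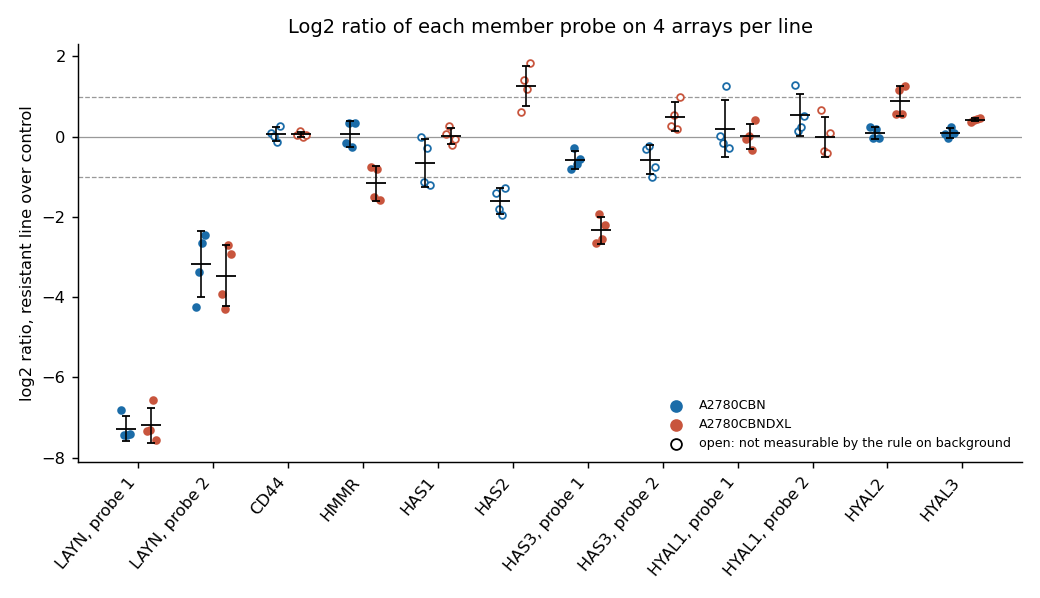
Log2 ratio of the resistant line over the control for the 12 member probes, with 1 point per array (4 arrays per line) and bars for the mean and SD. Dashed lines mark the 2-fold limit, and open points mark probes that were not measurable in that line. Both LAYN probes lie below the limit on all 8 arrays, and the HAS2 points of the lines lie on opposite sides of 0.

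The mRNA probe of LAYN gave an intensity of 15946, 13309, 11662 and 11508 in the control on the 4 A2780CBN arrays, and of 141, 76.7, 67.0 and 68.3 in A2780CBN on the same arrays. On the A2780CBNDXL arrays the control gave 15256, 19953, 14364 and 12702, and A2780CBNDXL gave 94.5, 126, 153 and 67.4. All 8 control values thus exceeded all 8 values of the resistant lines, and both channels were well above background on every array, so that layilin mRNA was low but detected in the resistant lines. The mean log2 ratio was -7.27 ± 0.30 (SD, n = 4 arrays) in A2780CBN, a 155-fold difference. It was -7.19 ± 0.44 (SD, n = 4 arrays) in A2780CBNDXL, a 146-fold difference.

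These sizes depended on the processing. With normal-exponential background correction at an offset of 50 and loess normalization, changed together and called the normexp setting below, the ratios of the LAYN mRNA probe were -4.90 and -5.41, with the gene still lower in both lines. Background-subtracted signals centred on the median gave -7.25 and -7.20. When channels were put on 1 scale across arrays (between-array quantile scaling of average intensity), layilin in A2780CBNDXL differed from that in A2780CBN by 0.21 ± 0.69 on the log2 scale. The matched arrays gave -0.42, 0.43, 1.1 and -0.26, in both directions, so the lines could not be put in order. The controls beside them differed by 0.13 ± 0.17. The order of the levels was thus both controls above both resistant lines, with no order within either pair beyond the spread of the arrays.

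The opposite-strand probe was also lower in both lines. It read 525, 334, 394 and 421 in the control and 27.7, 32.4, 63.1 and 77.4 in A2780CBN. On the A2780CBNDXL arrays it read 545, 608, 476 and 512 in the control and 35.9, 31.1, 73.0 and 67.1 in the resistant line, the first of these not well above background. Control and resistant values did not overlap. The log2 ratios were -3.17 ± 0.82 (SD, n = 4 arrays) and -3.46 ± 0.76 (SD, n = 4 arrays), with the slide 1 arrays between -4.29 and -3.36 and the slide 2 arrays between -2.93 and -2.44. With the normexp setting they were -1.08 and -1.35.

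**Figure D2:**
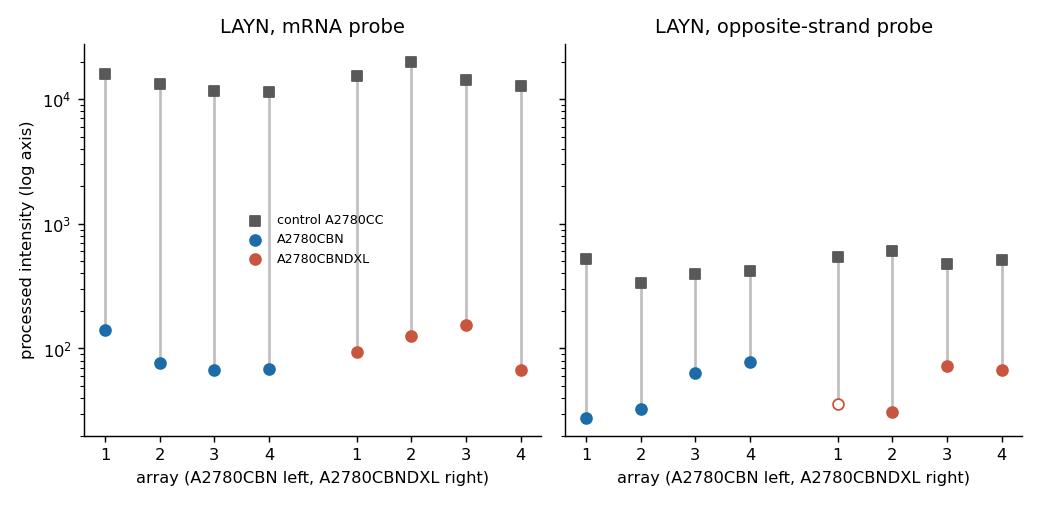
Processed intensity (log axis) of the LAYN mRNA probe (left) and the opposite-strand probe (right) on the 4 arrays of each line. Squares show the control and circles the resistant line of the same array, joined by a line, and the open circle was not well above background. At the mRNA probe the controls lie between 11508 and 19953 and the resistant lines between 67.0 and 153.

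The 5 named genes below had ratios most like those of LAYN, by the smallest Euclidean distance over the 8 array log2 ratios among 15652 genes whose control channel was well above background on every array. They were C7orf58 (now CPED1), VAV3, TNFRSF19, a TNF receptor family member, the transcription factor FOXP2 and the growth factor FGF20, at distances of 1.83 to 2.78.

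Unlike LAYN, these genes were not well above background in the resistant lines, apart from VAV3 on 1 array of A2780CBNDXL. Their ratios, and so the distances, rest on signals that were not well above background, no order of likeness is read from them, and their folds are lower bounds, taken against the lowest signal well above background. C7orf58 was at least 40.9-fold lower in A2780CBN and at least 49.5-fold lower in A2780CBNDXL. FOXP2 was at least 82.4-fold and at least 52.6-fold lower. TNFRSF19 was at least 42.8-fold and at least 37.0-fold lower. FGF20 was at least 17.7-fold and at least 43.5-fold lower, and its control level differed by 1.15 on the log2 scale between the lines' arrays. VAV3 was at least 66.5-fold lower in A2780CBN.

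Genes near LAYN on chromosome 11 were examined next. Of 34 gene names with a probe within 1 Mb, 17 were measurable in A2780CBN and 16 in A2780CBNDXL. In each line 2 of them were lower, beside 4.57% and 9.24% of all measurable genes, and none was higher, and their median log2 ratio was -0.45 and -0.24, beside -0.06 and 0.04 over all measurable genes. The nearest neighbour was C11orf88 (now HOATZ), 2539 bases from the opposite-strand probe of LAYN and in ascending order. Its log2 ratio was -4.12 ± 0.49 in A2780CBN and -1.56 ± 0.28 in A2780CBNDXL, so that it was lower in both lines as well. With the normexp setting these values were -1.38 and -0.92.

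On the other side the nearest named gene was SIK2, a salt-inducible kinase, 164684 bases away. SIK2 was lower in A2780CBN, at -1.44 ± 0.24, and was -0.60 ± 0.08 in A2780CBNDXL. PPP2R1B, a scaffold subunit of protein phosphatase 2A at 181272 bases, stood at -0.99 ± 0.06 in A2780CBN and passed the limit in A2780CBNDXL, at -1.07 ± 0.07. With the normexp setting SIK2 stood at -0.70 and PPP2R1B at -0.94 in the line where each had passed. No other measurable gene within 1 Mb changed in either line. Of the dim neighbours on the C11orf88 side, BTG4, at 41404 bases, gave -2.46 and -2.15, and C11orf93, at 230851 bases, -2.08 and -1.69. Neither was measurable by the rule, and against the lowest signal well above background BTG4 was at least 1.31-fold and 1.52-fold lower. With the normexp setting BTG4 stood at -0.14 and -0.18 and C11orf93 at -0.15 and -0.05. POU2AF1, between them, had no signal well above background.

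**Figure D3:**
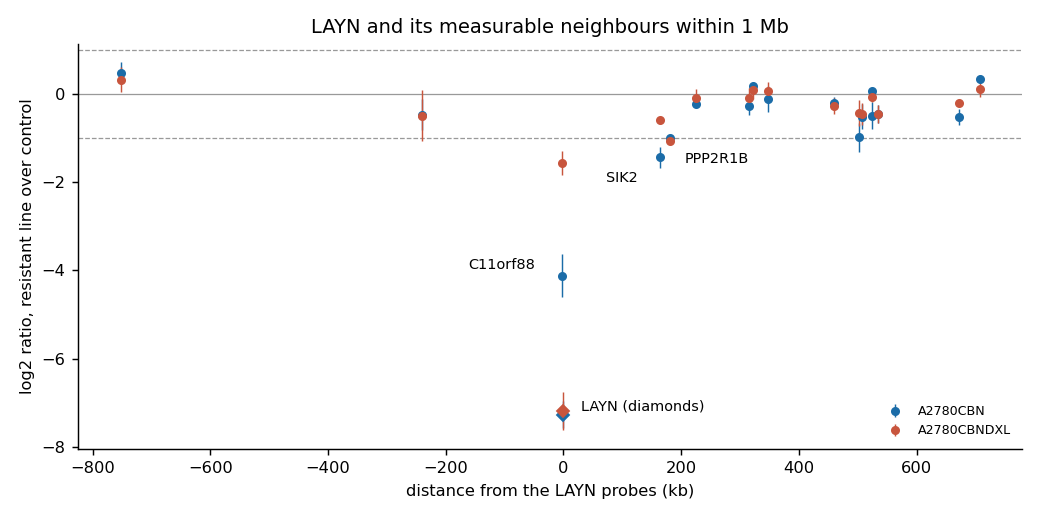
Mean log2 ratio (resistant line over control, bars are the SD of 4 arrays) of measurable genes against their distance from the LAYN probes in kb, with the LAYN mRNA probe as diamonds. C11orf88 at -4.12 and -1.56, SIK2 at -1.44 and -0.60 and PPP2R1B at -0.99 and -1.07 are the neighbours that passed 2-fold in a line, and the others lie between the dashed lines.

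CD44, the main hyaluronan receptor, was not well above background. Its probe is spotted 10 times on each array and no retained spot was above background in any channel. The mean intensity was between 4.33 and 7.85 in every channel. These arrays therefore give no ratio for CD44. They show only that this probe had no signal in the resistant lines or in the controls. A gene within 1 Mb of the CD44 probe that changed was FJX1, at 391116 bases, with -2.07 ± 0.05 in A2780CBNDXL, and the nearest named gene, SLC1A2 at 22096 bases, was not measurable.

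HMMR passed the limit in A2780CBNDXL and not in A2780CBN. On the A2780CBN arrays it read 7410, 8078, 7124 and 8223 in the resistant line and 8226, 6419, 8489 and 6438 in the control. On the A2780CBNDXL arrays it read 8385, 5405, 6449 and 5043 in the resistant line and 14181, 15234, 11345 and 15171 in the control. In A2780CBN the groups overlapped and the log2 ratio was 0.07 ± 0.32 (SD, n = 4 arrays). In A2780CBNDXL they did not, and the ratio was -1.16 ± 0.44 (SD, n = 4 arrays), a 2.24-fold difference.

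The forward arrays of A2780CBNDXL gave -0.76 and -0.81 for HMMR and the reverse arrays -1.49 and -1.59, so the 2-fold limit was passed with the reverse labelling and not with the forward one. The control values were themselves higher beside A2780CBNDXL than beside A2780CBN, by 0.79 ± 0.24 on the scaled log2 levels and on all 4 matched arrays. The resistant lines differed by -0.44 ± 0.70, with matched arrays at 0.39, -0.996, -0.11 and -1.06. The difference between the lines in HMMR was thus not larger than the spread of the arrays.

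HAS3 was the only synthase that was measurable by the rule. Its brighter probe read 129, 152, 116 and 120 in A2780CBN against 227, 186, 186 and 175 in the control. It read 26.6, 51.1, 26.0 and 34.1 in A2780CBNDXL against 166, 193, 153 and 157. In both lines the resistant values lay below all control values. The log2 ratio was -0.58 ± 0.23 (SD, n = 4 arrays) in A2780CBN and -2.33 ± 0.33 (SD, n = 4 arrays) in A2780CBNDXL, a 5.02-fold difference.

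The direct difference of HAS3 between the lines was -2.00 ± 0.22 on the scaled log2 levels, lower in A2780CBNDXL on all 4 matched arrays, while the controls differed by -0.25 ± 0.11. HAS3 was close to the background in A2780CBNDXL, where 2 of 4 arrays were well above it, and with the normexp setting its ratio in that line was -0.53, short of the limit. The other HAS3 probe, designed on another transcript record, was not measurable in either line and gave -0.58 ± 0.36 and 0.50 ± 0.36.

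HAS2 was near the background, and its ratio took opposite signs in the lines. In A2780CBN the probe read 12.9, 8.23, 5.22 and 8.81 against 34.1, 28.5, 20.3 and 21.3 in the control, where 3 of 4 control values were well above background. In A2780CBNDXL it read 37.0, 46.7, 30.6 and 39.0, of which 3 were well above background, against 24.0, 17.6, 13.5 and 10.9. The log2 ratios were -1.61 ± 0.32 and 1.26 ± 0.50 (SD, n = 4 arrays each), with every array of a line on the same side. On the scaled log2 levels the controls differed too, by -0.80 ± 0.26, lower beside A2780CBNDXL on all 4 matched arrays. The lines differed by 2.07 ± 0.38. Set against the lowest signal well above background, HAS2 was at least 1.15-fold lower in A2780CBN and at least 1.73-fold higher in A2780CBNDXL. With the normexp setting the ratios were -0.10 and 0.10, and with background-subtracted signals centred on the median -1.73 and 1.21. HAS1 was not above background in any channel, with intensities between 4.41 and 11.4.

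HYAL2 was well above background on every array and fell just short of 2-fold in A2780CBNDXL. It read 9444, 8535, 9030 and 8124 in A2780CBN against 8012, 8778, 7868 and 8272 in the control, with a log2 ratio of 0.09 ± 0.15 (SD, n = 4 arrays). It read 11952, 17025, 12965 and 15926 in A2780CBNDXL against 8062, 7546, 8715 and 6633, with a ratio of 0.89 ± 0.38 (SD, n = 4 arrays). In the second line all resistant values lay above all control values. The forward arrays gave 0.57 on both slides and the reverse arrays 1.17 and 1.26. Set against each other directly, the lines were 0.57 ± 0.04 apart, which exceeded the spread of the arrays, and that between the controls was -0.23 ± 0.49.

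HYAL3 stayed within the limit in both lines. Its log2 ratio ranged from -0.04 to 0.24 on the arrays of A2780CBN and from 0.38 to 0.46 on those of A2780CBNDXL, with means of 0.09 ± 0.12 and 0.42 ± 0.04. The lines differed by -0.10 ± 0.14, and the controls by -0.43 ± 0.20. The ratio in A2780CBNDXL thus stood beside a control level that was lower there, not beside a higher level in the line.

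HYAL1 was close to the background. Its brighter probe was measurable in A2780CBNDXL only, where resistant and control values were 56.4 to 71.0 and 45.1 to 76.9 and the log2 ratio was 0.01 ± 0.31. On the A2780CBN arrays they were 23.0 to 32.5 and 13.6 to 39.6, with 0.20 ± 0.71. Line and control were both higher on the A2780CBNDXL arrays, by 1.03 ± 0.30 and 1.22 ± 0.96 on the scaled levels. The other HYAL1 probe was not above background on any array.

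**Figure D4:**
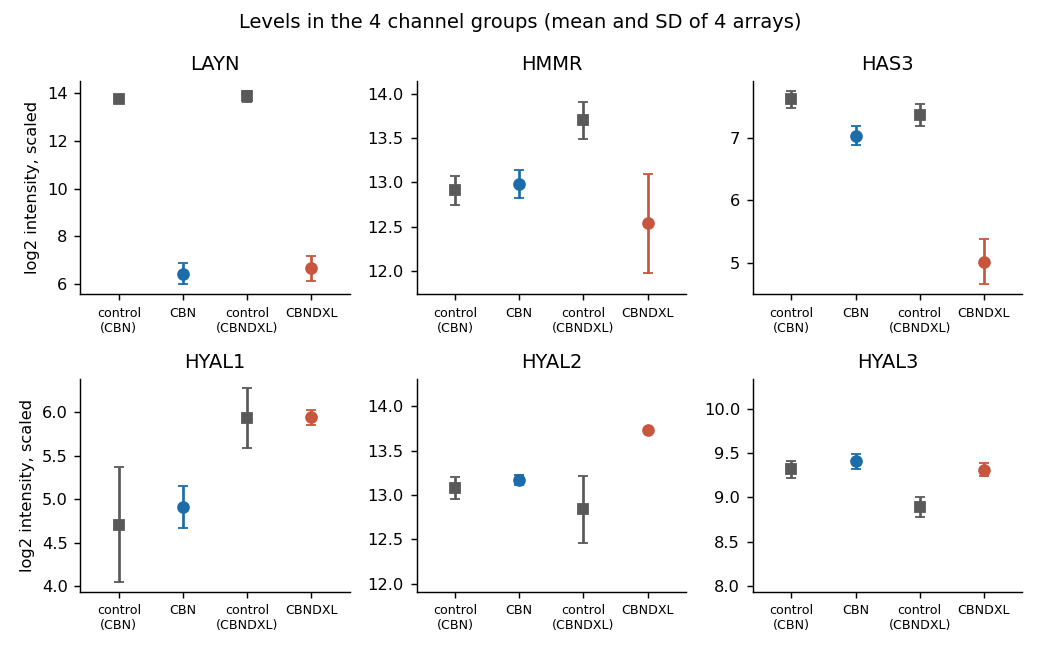
Scaled log2 intensity (mean and SD of 4 arrays) of the measurable member genes in the 4 channel groups, the control and the resistant line on the A2780CBN arrays and on the A2780CBNDXL arrays. The vertical axes differ between panels and do not start at 0. LAYN separates both controls from both lines, and HAS3 is lowest in A2780CBNDXL. Between the controls HMMR differs by 0.79 ± 0.24, HYAL3 by -0.43 ± 0.20 and HYAL1, with a wide spread, by 1.22 ± 0.96.

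Compared directly, HAS3 and HYAL1 were at least 2-fold apart between the resistant lines in the mean, with the same sign on all 4 matched arrays, as were 16.5% of all genes. For HYAL1 the matched arrays gave 1.02, 1.46, 0.84 and 0.79, so that 2 of them were under 2-fold. HAS2 was not counted because it was not measurable, although its matched arrays gave 1.56, 2.32, 2.39 and 2.01. Between the controls HYAL1 passed the same rule, as did 4.71% of all genes, but its arrays gave 1.09, 1.30, 2.42 and 0.08, and on the third of them the control beside A2780CBN was not well above background.

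The hyaluronidase genes lie together on chromosome 3, with the HYAL3 probe at chr3:50305393-50305452, the brighter HYAL1 probe at chr3:50312677-50312736 and the HYAL2 probe at chr3:50330456-50330515, all in descending order. Of 54 gene names within 1 Mb, 44 were measurable in A2780CBN, with 4 higher and 1 lower, and 43 in A2780CBNDXL, with 5 higher and 1 lower, beside 12.6% and 17.0% of all measurable genes changed in either direction. The nearest on each side, IFRD2 and TUSC2, did not change in A2780CBN, and NAT6, whose probe lies between those of the hyaluronidases, changed in neither line. AMT, an enzyme of glycine cleavage, was higher in both lines, at 1.01 ± 0.05 and 1.13 ± 0.17. UBA7, the activating enzyme for ISG15, was higher in A2780CBN at 4.78 ± 0.64, and BSN was higher there at 1.16 ± 0.38. CISH, a suppressor of cytokine signalling, was lower in A2780CBN at -2.07 ± 0.18. GNAI2, NICN1, MST1 and TCTA were higher in A2780CBNDXL, by 1.71, 1.17, 1.21 and 1.01. CACNA2D2, a calcium channel subunit, was higher in A2780CBN at 1.08 ± 0.32 and lower in A2780CBNDXL at -1.07 ± 0.24. With the normexp setting AMT, at 0.60 and 0.65, TCTA, at 0.75, BSN, at 0.30, and CACNA2D2, at 0.41 and -0.30, fell short of the limit.

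Beyond the members, 45 of 46 listed genes of hyaluronan metabolism and binding were on the arrays. In A2780CBN 28 were measurable, 3 higher and 2 lower, and in A2780CBNDXL 26 were measurable, 3 higher and 5 lower. The shares changed were 17.9% and 30.8%, beside 12.6% and 17.0% of all measurable genes. The median log2 ratio of the list was 0.16 and -0.23, beside -0.06 and 0.04 over all genes. The list was assembled with earlier results of these arrays known, so these shares are no independent evidence.

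Of 7 enzymes that make UDP-sugar precursors, all were measurable in both lines and GFPT2, an enzyme of the hexosamine pathway, was the one that changed. It was -0.63 ± 0.28 in A2780CBN and -2.20 ± 0.15 in A2780CBNDXL. UGDH, which makes UDP-glucuronic acid, was -0.06 ± 0.47 and 0.39 ± 0.39. Of 4 measurable genes of further degradation, CEMIP2, named TMEM2 on the arrays and known as a cell surface hyaluronidase or a regulator of its breakdown, was 0.39 ± 0.08 in A2780CBN and was lower in A2780CBNDXL, at -3.95 ± 0.31. Its other probe gave 0.17 ± 0.15 and -5.33 ± 0.61, the latter at least 16.5-fold. None of the 5 further receptors (LYVE1, STAB1, STAB2, TLR2 and TLR4) was measurable.

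Of the measurable hyaluronan-binding matrix and link proteins, 5 of 10 changed in A2780CBN and 4 of 8 in A2780CBNDXL, beside 12.6% and 17.0% of all measurable genes. Both counts include BCAN, whose probes disagreed as given below. VCAN, which encodes the proteoglycan versican, was lower in A2780CBN at -2.98 ± 0.21 and higher in A2780CBNDXL at 1.67 ± 0.17. PTX3, pentraxin 3, which takes part in assembling hyaluronan-rich matrix, was lower in both, at -3.80 ± 0.10 and, with no signal well above background in A2780CBNDXL, at least 38.5-fold there. HAPLN3, a link protein, was higher in both at 1.48 ± 0.54 and 1.04 ± 0.56. HAPLN1, another link protein, was higher in A2780CBN at 1.04 ± 0.04. In A2780CBNDXL a spot flagged as an outlier left 3 arrays for HAPLN1, with a mean of 3.40 ± 0.25 that the rule does not count.

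BCAN was counted as higher in A2780CBN at 1.77 ± 0.77 and as at least 22.9-fold lower in A2780CBNDXL. That count rested on a probe in the opposite order to the other BCAN probes, whose control level differed by 2.87 between the lines' arrays. The measurable one of the other probes gave 0.07 ± 0.22 and 0.26 ± 0.29. The direction of BCAN was thus not shared by its probes.

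Among the cytoskeletal linkers, EZR, which encodes ezrin, was 0.50 ± 0.28 in A2780CBN and just past the limit in A2780CBNDXL at -1.01 ± 0.11, with its other probe at 0.13 ± 0.16 and -1.03 ± 0.27. RDX, MSN and NF2 did not change, and TLN1, talin 1, lay at 0.12 ± 1.08 and 1.00 ± 0.31, just under the limit. ESRP2, the measurable splicing regulator, did not change. CHODL, which encodes chondrolectin, a lectin relative of layilin, was -0.84 ± 0.39 in A2780CBN and 7.59 ± 0.37 in A2780CBNDXL. In A2780CBNDXL layilin was low and CHODL high, with both far beyond the spread of the arrays. In A2780CBN layilin was low too and CHODL did not change, and a link between the genes was not tested.

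With the normexp setting, BCAN, HAPLN3 and VCAN no longer passed in A2780CBN, at 0.46, 0.34 and -0.97. In A2780CBNDXL EZR and HAPLN3 no longer passed, at -0.90 and 0.21, and CHODL stood at 6.68.

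**Figure D5:**
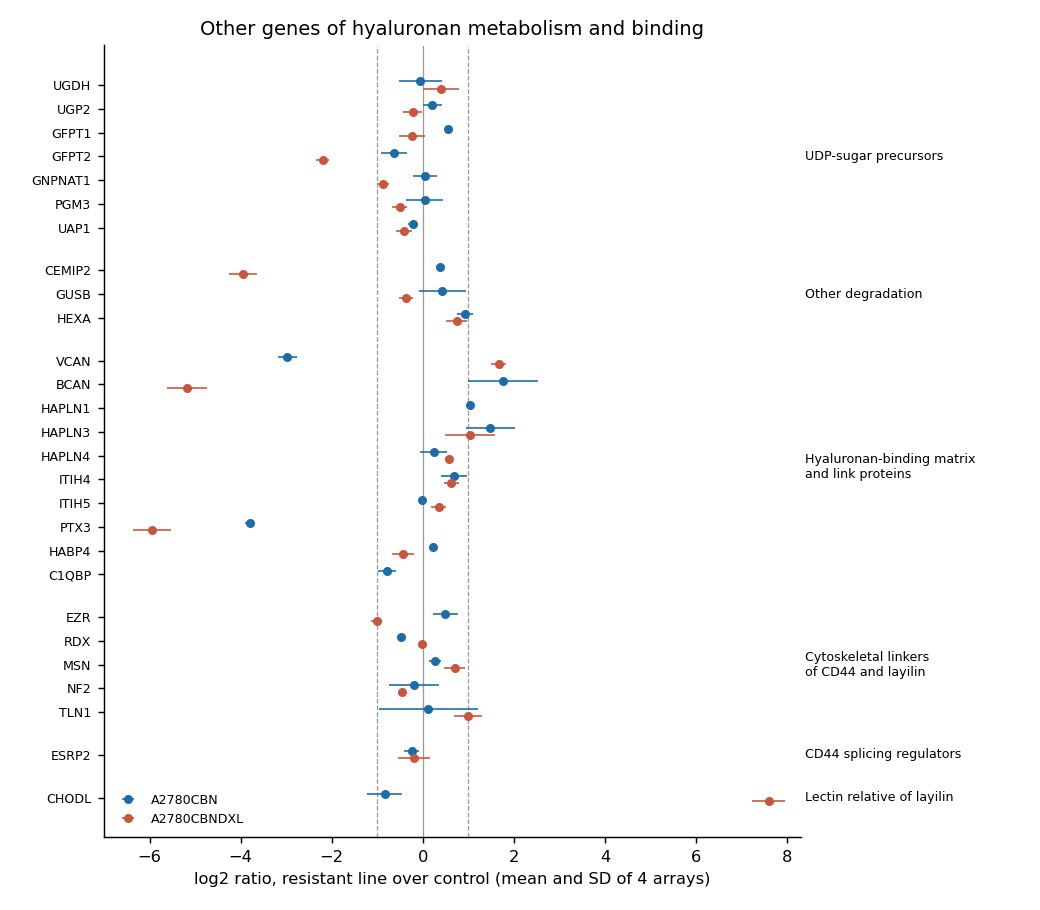
Mean log2 ratio (resistant line over control, bars are the SD of 4 arrays) of listed genes measurable in a line, grouped by function, with the 2-fold limit as dashed lines. VCAN at -2.98 and 1.67, CHODL at -0.84 and 7.59 and CEMIP2 at 0.39 and -3.95 lie far apart in the lines, and PTX3 is low in both.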

How the data were processed

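RNA of A2780CBN and A2780CBNDXL was compared with A2780CC on 8 two-colour Agilent arrays. The authors deposited scanner output of Feature Extraction (versions 10.7.1.1 and 10.7.3.1), whose processed intensity per channel is background-subtracted and dye-normalized. Control and outlier spots were left out and spots of a probe averaged. Log2 ratios were averaged within each labelling and then over both. Label sheets repeat the forward dyes for reverse arrays, which were turned over as named. No replicate cultures exist, so the 2-fold rule took the place of a test. All member probes were named, with the changed genes of the hyaluronan list, the 5 genes nearest LAYN, and changed or nearest neighbours within 1 Mb. Members and lists were chosen with earlier results of these data known. Scaling across arrays, normexp with an offset of 50 and the dye-term fits used limma (version 3.58.1) in R 4.3.3, and the rest Python 3.11.15. On simulated data with 200 planted changes larger than the limit, the rule recovered 198 and 200, and the dye-term fits 170 and 161. The noise of the most variable probes was capped there, so the simulation does not cover such probes. The number of arrays limits the precision. Probe names and coordinates are those of the files, with newer symbols from RefSeq. The study's quantitative PCR and the A2780DXL arrays were not analysed here. For 1 gene of the hyaluronan list the values are not reported here.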

Additional observations from a re-analysis of the deposited data

Results flagged for a closer look

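Among 13 pairs of a measurable member probe and a line, 1 array stood apart from the other 3. For the LAYN mRNA probe in A2780CBN, the forward array of slide 1 gave a log2 ratio of -6.82, while the others lay between -7.44 and -7.40. The gap was 0.926 of the whole range, above Dixon's critical value for 4 values. Chance alone flags about 1 in 20 such groups. HAS2, whose arrays lay on opposite sides of 0 in the lines, was not measurable by the rule and its difference was not tested.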

How the results depend on the processing

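No paired analysis was possible because each line is 1 pooled RNA sample. LAYN was counted as changed in both lines under all 15 alternatives. The limma fits among them take the technical arrays as replicates, so they do not cover differences between cultures. The count of changed members in A2780CBN went from 1 to 2, through HAS2, on slide 1 alone and without the filter on dim probes, and ranged from 1 to 2 when an array was left out, the higher value without array 3. In A2780CBNDXL it was 3, and 2 to 4 under the alternatives. HAS3 dropped out with normexp, with the mean over probes and with both channels required above background, and HMMR at a 3-fold limit, while HAS2 joined without array 1, on slide 2 alone and without the filter. With normexp and loess, 608 genes changed in A2780CBN, compared with 2259, and 1181 in A2780CBNDXL, compared with 2902, and the list's count in A2780CBN was 2 in place of 5. A 1.5-fold limit gave 4868 and 5713 changed genes and 11 and 14 of the list. A 3-fold limit gave 1127 and 1471 genes and, in A2780CBN, 3 of the list. Of 192 alternative values of member ratios 15 moved by more than the SD of the arrays and 0 reversed a call, and of 72 differences between lines or controls 3 moved and 0 reversed. The cause was not tested. Dim probes limit what can be said of CD44, HAS1, HAS2 and HYAL1.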
